A study of Rattus norvegicus with 6 samples.

Results

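The transcripts of 39 genes that carry glucose carbon through glycolysis, pyruvate and the citrate cycle were followed in rat pancreas. The genes were listed by name, and each was read on the probe set annotated to that gene alone that had the highest mean over the 6 arrays. Of the 39 genes, 36 had such a probe set; the array reads 10411 genes in this way without its control probe sets. Dlat and Fh had none, and the probe set of Pkm is shared with a second locus. Gapdh was read on a control probe set only, 5 genes (Hk2, Pfkp, Aldoc, Eno2 and Idh3a) lay below the intensity filter, and 30 genes entered the test. The list comprises the glucose 6-phosphate transporter Slc37a4, 16 genes of glycolysis, 8 around pyruvate and lactate, and 14 of the citrate cycle.

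The pancreas came from 3 rats fed an ethanol diet and 3 rats fed a control diet, with 1 rat for each array. The study asked how long-term ethanol intake affects the organ. The labels used here do not state the strain, sex, age, diet composition or length of feeding. The arrays read whole tissue, so fewer cells of a type and less RNA per cell cannot be told apart.

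Glycolysis splits glucose into pyruvate in the cytosol. The pyruvate dehydrogenase complex turns pyruvate into acetyl-CoA in mitochondria, and the citrate cycle oxidises it there. In the exocrine pancreas this supplies energy for making and secreting digestive enzymes. Glucose 6-phosphate, the first product of glycolysis, can also enter the lumen of the endoplasmic reticulum (ER), where it is hydrolysed to glucose or oxidised to yield NADPH.

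Values are background-subtracted intensities on a linear scale. A log2 change is the mean of log2(intensity + 50) in ethanol-fed rats minus that in control-fed rats, given with its standard error (SE) from limma. A change was called at a Benjamini-Hochberg adjusted p under 0.05 over all 9520 probe sets tested. Markers of acinar cells, which fill the exocrine pancreas, were read at high levels: their summed intensity ran from 1213147 to 1265322 in ethanol-fed rats and from 1203424 to 1212717 in control-fed rats. Of these 9 genes limma called 0 (0 at an unadjusted p under 0.05, against 18.4% of all tested probe sets). Prss2 and Pnlip read higher on every ethanol array than on any control array (22.2% of the 9 did not overlap, against 25.4% of all tested probe sets). Pnlip gave the highest value of ethanol arrays 1 and 3 (171742 and 164855). Whether the top of the scale hides a change was not tested. The ratio of 3' to 5' signal, a measure of RNA integrity, was 1.67 ± 0.175 for GAPDH in ethanol-fed rats and 1.81 ± 0.262 in control-fed rats (SD, n = 3 each, two-sided exact permutation p = 0.6, adjusted over GAPDH and beta-actin 0.6).

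Slc37a4, which carries glucose 6-phosphate across the ER membrane, was the 1 gene of the 30 called lower, where 0.305% of all tested probe sets were called lower. It read 988, 951 and 809 in the ethanol-fed rats, against 2019, 2563 and 2150 in the control-fed rats. The 2 groups did not overlap, and the highest ethanol array lay below the lowest control array. The mean was 916 ± 94.5 in ethanol-fed rats and 2244 ± 284 in control-fed rats (SD, n = 3 each), which is a log2 change of -1.25 (SE 0.16, 95% interval -1.60 to -0.89; limma, adjusted p = 0.0310). On that scale the level in ethanol-fed rats was 0.42 of the level in control-fed rats. Across the 9520 probe sets it ranked 11 by p-value, and 36 by how far its log2 change lay below 0. Slc37a4 was singled out with this result known, so its change is a description of the data rather than independent evidence.

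Over all 9520 probe sets, 39 were called (0.410%), 29 of them lower and 10 higher (0.105%). The call on Slc37a4 was close to the threshold. It was lost without control replicate 1 (log2 change -1.32, limma adjusted p = 0.126), control replicate 2 (-1.15, 0.120), control replicate 3 (-1.27, 0.118), ethanol replicate 2 (-1.27, 0.0800) and ethanol replicate 3 (-1.16, 0.127). Among the alternatives that kept all arrays, it was lost, for example, with no intensity filter (adjusted p = 0.159). It was called in 10 of the 17 alternatives and kept its sign in all 17, with adjusted p-values between 0.00444 and 0.159.

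The promoter of Slc37a4 is shown because this is the gene that was called, and those of Suclg2 and Sucla2 because these genes encode alternative subunits of 1 enzyme and lay on opposite sides of 0, as described with the citrate cycle. Each window spans 300 bases of RefSeq sequence (GRCr8 build), from upstream of the annotated start to just within the transcript, written 5' to 3' on the strand of the gene. The windows are chr8:53619775-53620074 (plus strand) for the first of 2 listed starts of Slc37a4, chr4:129893888-129894187 (minus strand) for Suclg2 and chr15:55161644-55161943 (plus strand) for Sucla2. Capitals mark matches on either strand to 4 motifs: the E-box CACGTG, the cyclic AMP response core TGACGT, the CCAAT box CCAAT and the GC box GGGCGG, none of which contains another.
Slc37a4: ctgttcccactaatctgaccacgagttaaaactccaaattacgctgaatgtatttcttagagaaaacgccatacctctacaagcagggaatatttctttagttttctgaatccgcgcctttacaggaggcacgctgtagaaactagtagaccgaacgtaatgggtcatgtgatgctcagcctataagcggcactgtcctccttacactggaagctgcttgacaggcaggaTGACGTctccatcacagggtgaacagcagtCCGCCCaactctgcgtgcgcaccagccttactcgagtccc
Suclg2: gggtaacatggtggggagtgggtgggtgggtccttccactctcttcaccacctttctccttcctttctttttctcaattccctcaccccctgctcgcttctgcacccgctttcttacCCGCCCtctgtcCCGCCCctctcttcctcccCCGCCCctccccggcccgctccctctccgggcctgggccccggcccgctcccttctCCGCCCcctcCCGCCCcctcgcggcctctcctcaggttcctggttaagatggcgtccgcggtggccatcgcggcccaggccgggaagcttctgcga
Sucla2: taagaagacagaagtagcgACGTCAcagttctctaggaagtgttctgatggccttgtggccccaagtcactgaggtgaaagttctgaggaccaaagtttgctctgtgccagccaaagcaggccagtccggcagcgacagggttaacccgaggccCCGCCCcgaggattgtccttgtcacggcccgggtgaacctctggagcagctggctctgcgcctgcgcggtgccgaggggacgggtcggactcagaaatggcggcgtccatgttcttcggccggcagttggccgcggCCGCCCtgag
The Slc37a4 window holds 1 TGACGT and 1 GC box, the Sucla2 window 1 TGACGT and 2 GC boxes, and the Suclg2 window 5 GC boxes. The window at the second listed start of Slc37a4, which overlaps the first and is not shown, holds 1 TGACGT and 3 GC boxes. Neither the E-box nor the CCAAT box occurs in these windows. TGACGT occurs at 9 of the 36 listed genes that have a promoter in the table (25.0%), against 8.68% of all 27457 genes there. GC boxes occur at 26 of the 36 (72.2%) against 36.0% of all genes, CCAAT at 17 (47.2%) against 39.6%, and the E-box at 3 (8.33%) against 7.08%. A gene counted if any of its windows matched, and the comparison was not limited to genes tested on this array. The shares therefore do not show a trait of these enzymes. These matches are letters in a window and say nothing of binding.

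A list of ER glucose 6-phosphate and glycogen genes, most of its tested members glycogen genes, was read beside Slc37a4. Of its 20 genes, 11 were tested and limma called 0; at an unadjusted p under 0.05, 2 lay lower and 0 higher (18.2%, against 18.4% of all tested probe sets). Of the 11, 10 had a log2 change below 0, with a median of -0.18, where 4758 of the 9520 tested probe sets were below 0 and the overall median was 0.00020. H6pd, the ER enzyme that oxidises glucose 6-phosphate, read 594, 577 and 388 in ethanol-fed rats, against 919, 819 and 746 in control-fed rats. Its groups did not overlap (log2 change -0.64, SE 0.19, limma adjusted p = 0.146). Gyg1, the glycogenin that primes glycogen synthesis, read 1314, 1594 and 1665 in ethanol-fed rats, against 3005, 3016 and 2581 in control-fed rats. Its groups also did not overlap, and it missed the threshold (log2 change -0.89, SE 0.15, limma adjusted p = 0.0571). G6pc3, a ubiquitous glucose 6-phosphatase of the ER, had a log2 change of -0.17 (SE 0.21), and is named outside the naming rule after its values were seen. Gaa, the lysosomal enzyme that breaks down glycogen, was at -0.40 (SE 0.24), with overlapping groups.

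**Figure D1:**
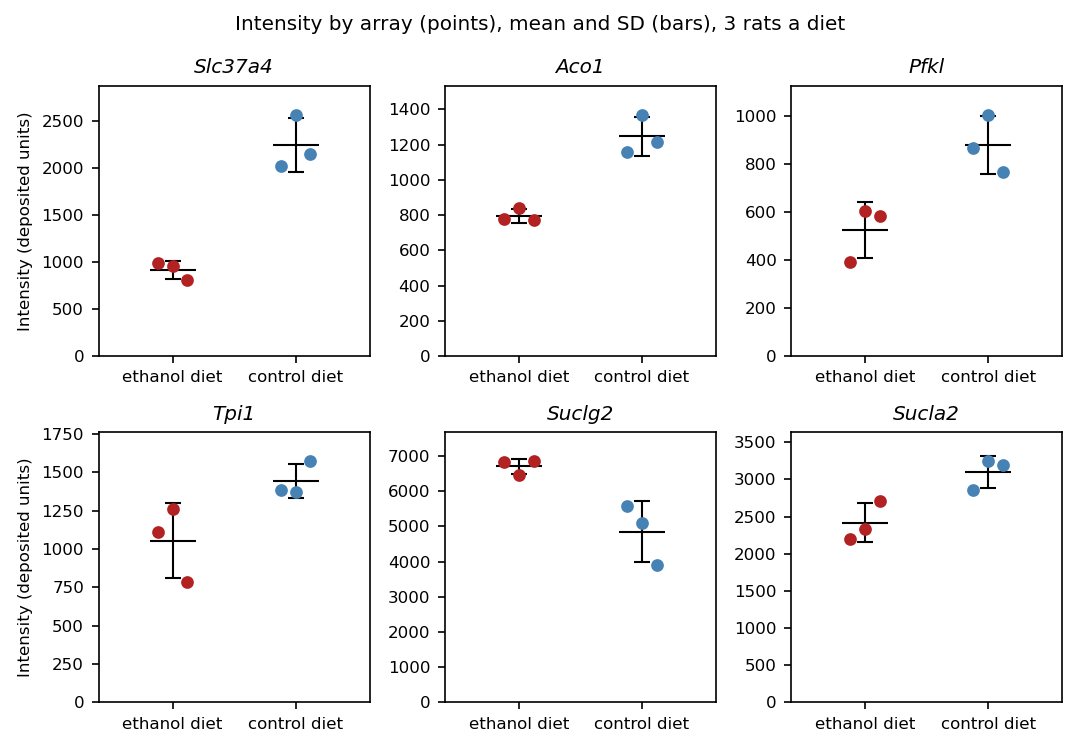
Intensity on each array (points) for 6 genes, with the mean and SD as bars; the ethanol diet is at the left of each panel and the control diet at the right, 3 rats each. Slc37a4, Aco1, Pfkl, Tpi1 and Sucla2 read lower on every ethanol array than on any control array, and Suclg2 read higher; of the 6, Slc37a4 alone passed the test.

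Apart from Slc37a4, limma called 0 of the 29 enzymes tested. At an unadjusted p under 0.05, 5 of the 29 were lower and 1 was higher (Suclg2). With Slc37a4 included, 7 of 30 (23.3%) lay under that p, against 18.4% of all tested probe sets (10.3% lower and 8.08% higher). The 2 groups did not overlap for 8 of the 30 genes (26.7%), against 25.4% of all tested probe sets. Both shares are near the background, so they are not a result about these enzymes. The log2 change was below 0 for 21 of the 30 (70.0%), with a median of -0.12. The median size of the change without regard to sign was 0.21 for the 30 genes and 0.21 for all tested probe sets.

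In glycolysis, limma called 0 of 10 tested genes. At an unadjusted p under 0.05, 2 lay lower and 0 higher (20%, against 18.4% of all tested probe sets). The groups did not overlap for 4 of the 10 (40%, against 25.4% of all tested probe sets), all with ethanol lower. The 6 tested enzymes upstream of Gapdh had log2 changes below 0 and the 4 downstream above 0, though Pgam1 took either sign when single arrays were left out. Among upstream genes below the intensity filter, Hk2 (0.01) and Pfkp (0.57) lay above 0 and Aldoc (-0.03) below. This split was not planned before the values were seen and was not tested. Hk1, a hexokinase that phosphorylates glucose, had a log2 change of -0.34 (SE 0.20) with overlapping groups. The array also carries control probe sets along a hexokinase transcript, whose means lay between -6.33 and 163 in ethanol-fed rats and between 32.3 and 175 in control-fed rats, near the floor of the scale. Gpi, which isomerises glucose 6-phosphate to fructose 6-phosphate, read 1566, 1225 and 1617 in ethanol-fed rats, against 1697, 1798 and 1906 in control-fed rats. Its groups did not overlap, and the log2 change was -0.29 (SE 0.16, limma adjusted p = 0.357).

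Phosphofructokinase commits sugar to glycolysis, and was read through 3 isoforms. Pfkl, the liver type, read 392, 602 and 581 in ethanol-fed rats, against 865, 1003 and 766 in control-fed rats. All ethanol arrays lay below all control arrays (-0.70 on the log2 scale, SE 0.19, limma adjusted p = 0.133). The muscle type Pfkm overlapped between diets, at 1785 ± 201 in ethanol-fed rats and 1869 ± 169 in control-fed rats (SD, n = 3 each, log2 change -0.07, SE 0.15). Its second probe set was at -0.24 (SE 0.38). The platelet type Pfkp, below the intensity filter and not tested, read 206, 300 and 272 in ethanol-fed rats, against 187, 180 and 111 in control-fed rats. These groups did not overlap, and its log2 change was 0.57. Whether the isoforms differ from each other in their response was not tested.

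Aldoa, the aldolase that cleaves fructose 1,6-bisphosphate, read 4034, 3899 and 4101 in ethanol-fed rats, against 4705, 4704 and 4416 in control-fed rats. The arrays of each diet lay close together and the groups did not overlap, but the difference was small (log2 change -0.20, SE 0.13, limma adjusted p = 0.453). Tpi1, which interconverts the resulting triose phosphates, read 1113, 1262 and 784 in ethanol-fed rats, against 1386, 1372 and 1572 in control-fed rats. Its groups did not overlap either (log2 change -0.46, SE 0.19, limma adjusted p = 0.248), and ethanol replicate 3 lay farthest below.

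Downstream of Gapdh, Pgk1, which makes the first ATP of the pathway, had a log2 change of 0.20 (SE 0.15), and on a second probe set 0.52 (SE 0.33). On that second probe set the ethanol-fed rats read 1352, 1639 and 3668, against 1432, 1357 and 1389 in the control-fed rats, so that the difference came mainly from ethanol replicate 3. Another probe set of Pgk1 read at the floor of the scale, with means of 4.0 in ethanol-fed rats and -8.0 in control-fed rats, and was not tested. The mutase Pgam1 was at 0.01 (SE 0.13) and the enolase Eno1 at 0.15 (SE 0.14), with overlapping groups.

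Pklr, the pyruvate kinase of liver and red cells, was at 0.30 (SE 0.23) and on a second probe set at 0.26 (SE 0.22). It read 954, 863 and 736 in ethanol-fed rats, against 456, 823 and 831 in control-fed rats. Its groups overlapped, and control replicate 1 lay far below the rest. On the same arrays the 4 measured erythroid markers, all tested, were above 0 and had a median log2 change of 0.61, with 3 of the 4 not overlapping between diets, where 11.1% of all tested probe sets did not overlap with ethanol higher. Their summed intensity ran from 25617 to 33312 in ethanol-fed rats and from 15433 to 22883 in control-fed rats. The globin Hbb, the brightest of them, was at 0.80 (SE 0.20, limma adjusted p = 0.107). Their part in the value of Pklr was not tested. The dim genes Hk2, Aldoc and Eno2, not tested, had log2 changes of 0.01, -0.03 and 0.06.

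Gapdh, which oxidises glyceraldehyde 3-phosphate and often serves as a constant reference, was read along its transcript by 3 control probe sets. The 3' probe set read 3270, 4475 and 4811 in ethanol-fed rats, against 3010, 3529 and 3835 in control-fed rats. The groups overlapped through ethanol replicate 1, which lay below the control replicates 2 and 3. The log2 change was 0.26 (two-sided exact permutation p = 0.3, where 3 arrays against 3 cannot give less than 0.1). The middle and 5' probe sets gave 0.36 each, also with overlapping groups. Each of the 3 beta-actin control probe sets, which read 1 transcript, lay higher on every ethanol array than on any control array. Of all tested probe sets, 11.1% did so. The beta-actin 3' means were 8677 ± 246 in ethanol-fed rats and 6651 ± 1139 in control-fed rats (SD, n = 3 each).

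**Figure D2:**
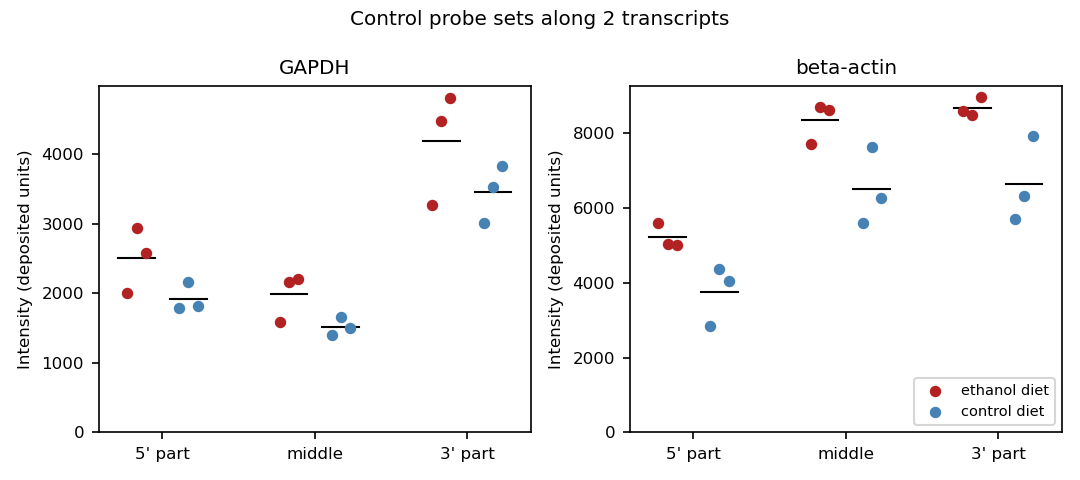
Intensity of the control probe sets for the 5' part, the middle and the 3' part of the GAPDH and beta-actin transcripts; points are arrays (ethanol diet at the left of each pair, control diet at the right) and black lines are means of 3 rats. GAPDH overlaps between diets at each part. Beta-actin does not overlap at any of its parts, with ethanol higher, as for 11.1% of all tested probe sets.

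Around pyruvate, all 7 tested genes overlapped between diets, where 25.4% of all tested probe sets did not overlap. Limma called 0 of them (0 at an unadjusted p under 0.05, against 18.4% of all tested probe sets). So few genes cannot show that this step was unchanged. The lactate dehydrogenase subunits Ldha and Ldhb, which interconvert pyruvate and lactate, were at -0.29 (SE 0.20) and -0.28 (SE 0.18). Ldha read 851, 943 and 691 in ethanol-fed rats, against 1151, 1174 and 780 in control-fed rats, and control replicate 3 fell among the ethanol values. Fbp1, the gluconeogenic fructose bisphosphatase, was at 0.18 (SE 0.27), and Pc, which carboxylates pyruvate to oxaloacetate, at -0.03 (SE 0.17). The E1 subunits of pyruvate dehydrogenase were nearly level: Pdha1 averaged 3359 ± 74.1 in ethanol-fed rats and 3421 ± 437 in control-fed rats (SD, n = 3 each, log2 change -0.02, SE 0.15, 95% interval -0.36 to 0.32), and a second probe set of Pdha1 was at -0.14 (SE 0.26). Pdhb was at 0.10 (SE 0.14). Dld, the E3 subunit that pyruvate dehydrogenase shares with the oxoglutarate dehydrogenase complex, read 1450, 1032 and 1093 in ethanol-fed rats, against 1712, 1855 and 1209 in control-fed rats. Those groups overlapped (log2 change -0.40, SE 0.21, limma adjusted p = 0.344).

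In the citrate cycle, 12 genes were tested and limma called 0; at an unadjusted p under 0.05, 3 lay below 0 and 1 above (33.3%, against 18.4% of all tested probe sets). Aco1 came closest to the threshold. It encodes the cytosolic aconitase, which also acts as an iron regulatory protein, and it stands in the cytosol rather than in the mitochondrial cycle. It read 775, 842 and 773 in ethanol-fed rats, against 1159, 1369 and 1213 in control-fed rats. The groups lay well apart, with means of 797 ± 39.3 in ethanol-fed rats and 1247 ± 109 in control-fed rats (SD, n = 3 each, log2 change -0.61, SE 0.14, limma adjusted p = 0.0957). With the intensity filter at the 60th percentile, where fewer probe sets are tested, Aco1 passed narrowly (limma adjusted p = 0.04998); under its other alternatives its adjusted p stayed above 0.05, with values up to 0.286. At an adjusted p under 0.10 in place of 0.05, Aco1 would be called.

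Succinyl-CoA ligase, the step of the cycle that makes GTP or ATP, had its alternative beta subunits on opposite sides of 0. Suclg2, the GTP-forming subunit, read 6816, 6457 and 6845 in ethanol-fed rats, against 5570, 5084 and 3905 in control-fed rats. All ethanol arrays lay above all control arrays, and the log2 change was 0.48 (SE 0.17, 95% interval 0.10 to 0.86, limma adjusted p = 0.187). Sucla2, the ATP-forming subunit, read 2203, 2339 and 2709 in ethanol-fed rats, against 2854, 3243 and 3195 in control-fed rats. Here all ethanol arrays lay below all control arrays (log2 change -0.35, SE 0.15, 95% interval -0.69 to -0.02, limma adjusted p = 0.247). Suclg1, the alpha subunit that both forms share, overlapped between diets (-0.14, SE 0.16). The opposite signs were noticed after the values were seen, and neither subunit passed.

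The NAD-dependent isocitrate dehydrogenase, a regulated step of the cycle, is built from 3 kinds of subunit. Idh3b read 887, 1291 and 1101 in ethanol-fed rats, against 1490, 1650 and 1260 in control-fed rats (log2 change -0.42, SE 0.18, limma adjusted p = 0.272). Its groups overlapped, since control replicate 3 lay below ethanol replicate 2. Idh3g was at -0.03 (SE 0.17), and Idh3a, below the filter and not tested, at 0.28. The NADP-dependent enzymes Idh1 of the cytosol and Idh2 of mitochondria were at -0.25 (SE 0.15) and 0.0040 (SE 0.14).

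Citrate synthase, the entry to the cycle, was read by 3 probe sets of Cs that disagreed in sign, at -0.22 (SE 0.16), -0.31 (SE 0.19) and 0.18 (SE 0.23). Ogdh, the E1 subunit of oxoglutarate dehydrogenase, was at -0.09 (SE 0.16). The malate dehydrogenases Mdh1 (cytosolic) and Mdh2 (mitochondrial) were at -0.00014 (SE 0.13) and 0.07 (SE 0.18). Mdh1 averaged 7258 ± 302 in ethanol-fed rats and 7256 ± 199 in control-fed rats (SD, n = 3 each). A dimmer probe set of Mdh1 read 332, 449 and 249 in ethanol-fed rats, against 477, 581 and 479 in control-fed rats. Those groups did not overlap (-0.54, SE 0.20, limma adjusted p = 0.213), so the 2 probe sets of Mdh1 disagree.

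**Figure D3:**
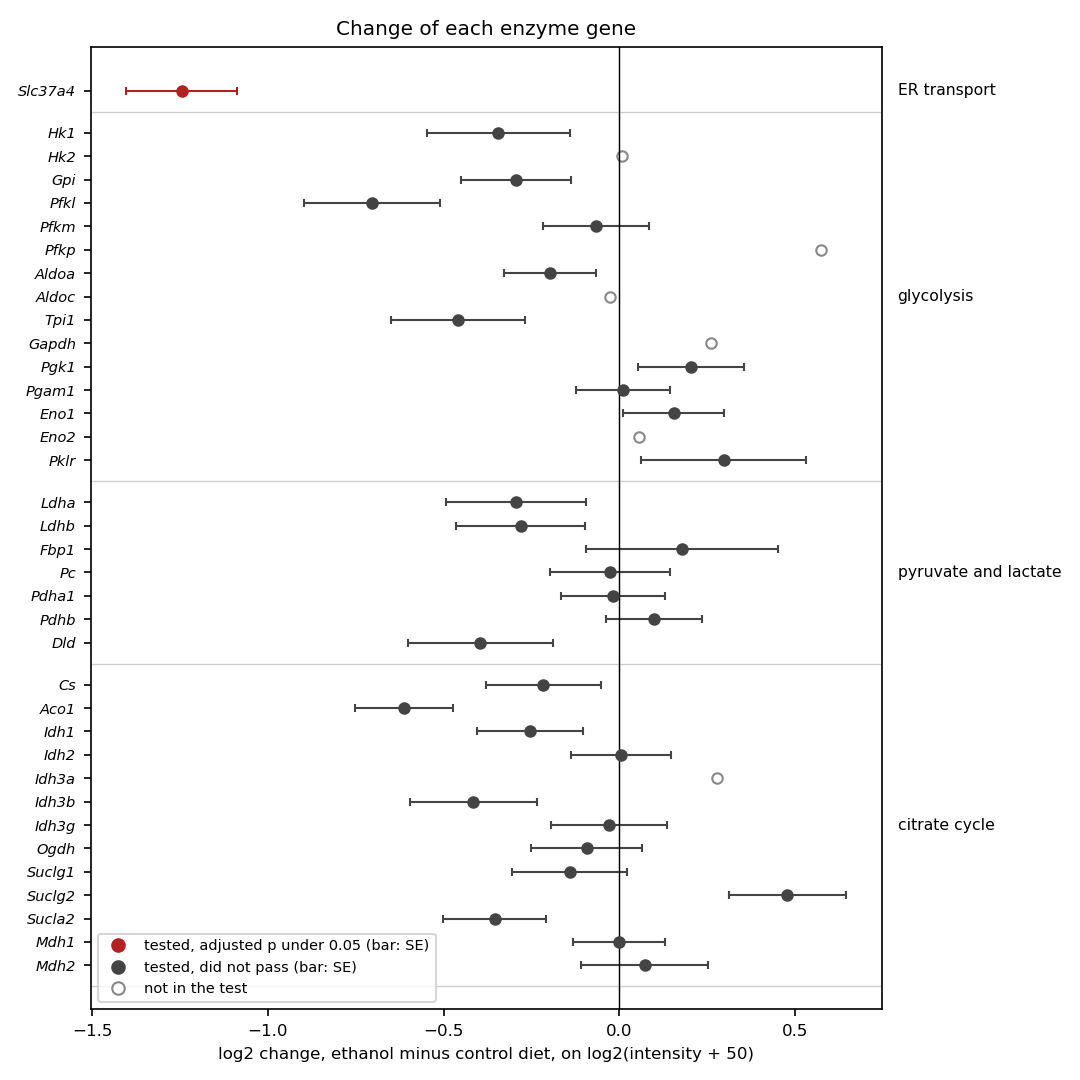
Log2 change of each gene, ethanol minus control diet, ordered by pathway; bars are the SE from limma, the red point passed at an adjusted p under 0.05, and open circles were not tested. Slc37a4 stands at -1.25, and the tested enzymes lie between -0.70 for Pfkl and 0.48 for Suclg2.

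Glycolysis and the citrate cycle had nearly the same median. It was -0.13 over the 10 tested genes of glycolysis and -0.12 over the 12 of the citrate cycle, a difference of -0.015, against a median of 0.00020 over all tested probe sets. The pyruvate and lactate genes had a median of -0.027 over 7 genes. Without the intensity filter, the median was -0.0091 over 14 genes of glycolysis, since the 4 dim genes then counted lie between -0.03 and 0.57. Without Aco1, Idh1 and Mdh1, which act in the cytosol, the citrate cycle median was -0.093. Over all 12 tested genes it ranged from -0.18 to -0.011 when single arrays were left out, against -0.18 to -0.088 for glycolysis. The difference between glycolysis and the cycle ranged from -0.17 to 0.083 when single arrays were left out, and thus took either sign; it was -0.17 without ethanol replicate 1.

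Of the remaining genes of glucose metabolism, listed by function, limma called 0 of 58 tested. Among transporters, 15 were tested, of which 1 lay higher and 2 lay lower at an unadjusted p under 0.05 (20%, against 18.4% of all tested probe sets), with a median of 0.093. Slc16a1, the lactate and pyruvate carrier MCT1, read 747, 370 and 461 in ethanol-fed rats, against 975, 819 and 1154 in control-fed rats (log2 change -0.88, SE 0.25, limma adjusted p = 0.137). The groups did not overlap. The insulin-responsive glucose transporter Slc2a4 was at 0.45 (SE 0.17), and the mitochondrial dicarboxylate carrier Slc25a10 at -0.55 (SE 0.23). In the pentose phosphate list 0 of 7 lay under that p by limma, with a median of 0.072. Its members of smallest p were the ribose-phosphate kinase Prps1 (0.23, SE 0.17), the dehydrogenase Pgd (-0.17, SE 0.14) and Rpia (0.14, SE 0.29).

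Among further genes of glycolysis and gluconeogenesis, 9 were tested. At an unadjusted p under 0.05, 2 lay above 0 and 1 below (33.3%, against 18.4% of all tested probe sets). The 2 forms of phosphoenolpyruvate carboxykinase, which draws oxaloacetate into gluconeogenesis, lay on opposite sides of 0. Pck1, the cytosolic form, read 763, 706 and 776 in ethanol-fed rats, against 339, 547 and 429 in control-fed rats (log2 change 0.73, SE 0.18, limma adjusted p = 0.108). Pck2, the mitochondrial form, read 3217, 4464 and 4534 in ethanol-fed rats, against 5729, 6123 and 5448 in control-fed rats (-0.51, SE 0.17, limma adjusted p = 0.177). Neither overlapped between diets and neither passed. The fructose bisphosphatase Fbp2 was at 0.46 (SE 0.15, limma adjusted p = 0.167), with no overlap.

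Regulators of pyruvate dehydrogenase were read with other citrate cycle genes, with 16 tested. At an unadjusted p under 0.05, 3 lay above 0 and 4 below (43.8%, against 18.4% of all tested probe sets). Pdk2, a kinase that switches the complex off, read 2182, 1789 and 1837 in ethanol-fed rats, against 1269, 1559 and 1175 in control-fed rats. Its groups did not overlap (log2 change 0.52, SE 0.16, limma adjusted p = 0.161). Pdk4, the fasting-responsive kinase of the same family, named outside the rule after its values were seen, read 771, 1890 and 1596 in ethanol-fed rats, against 393, 899 and 543 in control-fed rats. Its groups overlapped, since ethanol replicate 1 lay below control replicate 2 (1.13, SE 0.37, limma adjusted p = 0.169). The other kinases of the family, Pdk3 at 0.26 (SE 0.17) and Pdk1 at -0.12 (SE 0.16), also overlapped between diets. Pdp1, the phosphatase that switches the complex back on, read 367, 409 and 364 in ethanol-fed rats, against 520, 644 and 597 in control-fed rats. The groups did not overlap (-0.56, SE 0.14, limma adjusted p = 0.116). Dlst, the E2 subunit of oxoglutarate dehydrogenase, read 2196, 2364 and 2144 in ethanol-fed rats, against 2985, 3055 and 2970 in control-fed rats (-0.42, SE 0.13, limma adjusted p = 0.162). The list median was 0.013.

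**Figure D4:**
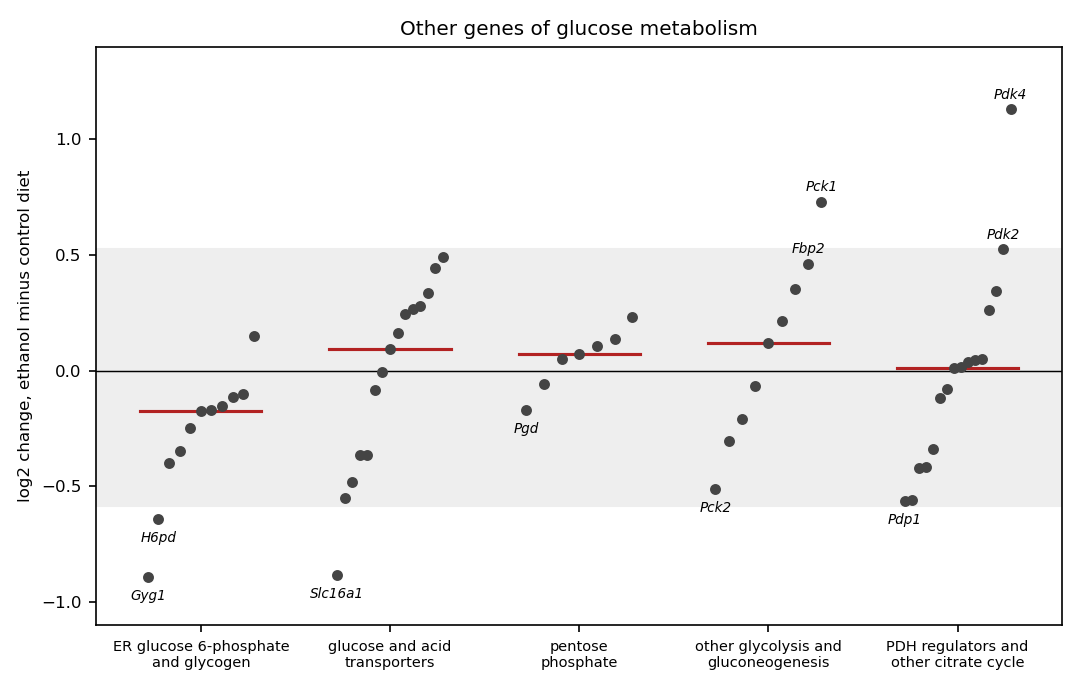
Log2 change, ethanol minus control diet, of the tested genes in 5 further lists of glucose metabolism; points are genes, red lines are list medians, and the grey band spans -0.58 to 0.53, between which 9 in 10 of all tested probe sets lie. None of the points passed the test, and Gyg1, H6pd, Slc16a1, Pck1 and Pdk4 lie outside the band.

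Markers of other cell types were read on the same arrays, and limma called 0 of them, where 0.410% of all tested probe sets were called. The median log2 changes were 0.14 for islet (6 tested), -0.24 for duct (3), -0.13 for adipocyte (3) and 0.026 for macrophage genes (4). They were -0.11 for endothelial (2), -0.098 for stellate and fibroblast (4) and 0.23 for skeletal muscle genes (3). The brightest gene of each list was at 0.02 for the acinar Cpa1, -0.09 for the islet Ins2, -0.25 for the duct Epcam, -0.13 for the adipocyte Fabp4, 0.02 for the macrophage Lyz2, -0.18 for the endothelial Kdr, -0.05 for the stellate Col3a1 and 0.30 for the muscle Myh1. No lymphocyte gene passed the intensity filter, and the brightest, Cd2, was at 0.25. By limma, 3 of the 4 tested erythroid genes and 1 of the 3 tested adipocyte genes lay under an unadjusted p of 0.05. The other marker lists held 0, against 18.4% of all tested probe sets. The adipocyte gene was the factor Cfd, at 0.69 (SE 0.21, limma adjusted p = 0.158).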

How the data were processed

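Each of 6 arrays (1 rat each) gave 1 value for each of 15923 probe sets. Per the labels, 5 micrograms of total RNA were made into biotin-labelled cRNA. The deposited values are intensities. No label states the scanner, software or normalization. The values show that background had been subtracted (931 to 949 below 0 per array) and that the arrays share nearly 1 distribution. The 57 control probe sets were left out of the test. Gene names came from the platform annotation, an older one, for probe sets with 1 symbol (12783); 12748 of their gene IDs were found in RefSeq (GRCr8).

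Values below 0 were set to 0, 50 was added and the log2 taken, which understates changes of dim genes. Probe sets with a mean at or above the 40th percentile (9520, of 7106 genes) were fitted with limma 3.58.1 in R 4.3.3, with 2 groups and no block. The procedure was tested on simulated data. The median SE of a log2 change was 0.18, and 3 arrays a diet limit the precision.

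The members and lists were chosen with earlier results of these data known. The naming rule took every member and its other probe sets, the 3 genes of smallest p in each further list and the brightest gene of each marker list. The labels do not say whether same-numbered arrays are pairs, so the numbers were not used as pairs. Deviations of same-numbered arrays had correlations of -0.030, 0.026 and -0.14, which are too few to decide it. Alternatives were other constants, normalizations, filters, a variance trend, a block, the mean of a gene's probe sets, control probe sets kept (added after seeing the data), an adjusted p under 0.10, and each array left out.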

Additional observations from a re-analysis of the deposited data

How the results depend on the processing

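Slc37a4 kept its sign under all 17 alternatives and was called in 10, which include the looser adjusted p under 0.10, where its call could not be lost. It was not called without the filter (log2 change -1.25, limma adjusted p = 0.159), with the replicate block (-1.25, 0.0904) or in 5 of the 6 fits that left out 1 array (-1.32 to -1.15 over the 6, adjusted p from 0.0351 to 0.127). The count of genes called lower was 1, but 0 without the filter, 0 with the replicate block, 2 with the filter at the 60th percentile, 2 at an adjusted p under 0.10, and 0 to 1 with single arrays left out. Genes under an unadjusted p of 0.05 numbered 7, but 4 with the replicate block and 4 to 7 with single arrays left out. Over all probe sets, 39 were called, but 12 with a constant of 20, 0 without the filter (limma, 2263 at an unadjusted p under 0.05), 134 with the filter at the 60th percentile, 249 with the variance trend, 6 with the replicate block, 228 at an adjusted p under 0.10 and 2 to 38 with single arrays left out (38 without ethanol replicate 1). The labels do not say whether the numbers pair the rats, and 3 correlations are too few to decide it. Of the 3 ethanol arrays, 1 correlated best with the control array of its own number. Why calls were lost under the block was not tested.

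The glycolysis median was -0.13, but -0.0091 without the filter, -0.067 with the filter at the 60th percentile, -0.17 with the mean of a gene's probe sets, -0.067 with control probe sets kept and -0.18 to -0.088 with single arrays left out. Glycolysis minus citrate cycle ran from -0.17 to 0.083 with single arrays left out. Of the 434 values of single enzymes, all held to an adjusted p under 0.05, 413 kept their sign and side of that threshold, Aco1 passed with the filter at the 60th percentile, and 20 near 0 changed sign. Mdh1 was at 0.014 with quantile normalization and 0.00068 with equal medians. With single arrays left out, the ranges that crossed 0 were -0.055 to 0.42 for Fbp1, -0.075 to 0.070 for Idh2, -0.18 to 0.061 for Idh3g, -0.027 to 0.032 for Mdh1, -0.11 to 0.17 for Mdh2, -0.14 to 0.12 for Pc, -0.13 to 0.043 for Pdha1 and -0.027 to 0.059 for Pgam1. The cause of these changes was not tested.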
